A study of Mus musculus with 4 samples.

Results

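Ccl2, Ccl7, Ccl8 and Ccl12, 4 secreted chemokines that attract monocytes, and Ccr2, the receptor through which most of them act, were followed through every cell cluster of immune cells sorted from mouse mammary tumours. The genes were taken by name, and all 5 were found among the 11407 genes of both expression tables. The immune cells were live CD45-positive cells from tumours injected with either a control plasmid or a plasmid for interleukin 12 (IL-12), a cytokine known for inducing interferon-gamma in lymphocytes, and both injections were followed by electroporation. Each treatment is represented by a pool of tumours from 3 mice, sequenced as 1 gene expression library. Treatments were therefore compared without replicates and without a test. The labels do not give 1 tumour model: the design text speaks of triple-negative tumours, the library names in the tables carry the name of the 4T1 mammary carcinoma line, and the growth protocol describes HER2 induced in the mammary tissue of mice 1 month old. The sources used here do not give age at treatment, strain or the time between treatment and collection. The treatment column inside the control table reads "Isotype", while its label reads control plasmid; the label was used.

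The control library held 4232 cells and 17306854 unique molecular identifiers (UMIs, each standing for 1 captured transcript), with a median of 3021 per cell. The IL-12 library held 12979 cells and 59956933 UMIs, with a median of 3418 per cell. In total 87 cell barcodes occurred in both libraries, and leaving those cells out moved none of the 10 main ratios beyond its counting interval. Ptprc, which encodes CD45, had a UMI in 72.0% of control and 71.1% of IL-12 cells. Levels are UMIs of a gene per 1000000 UMIs of the cells named (CPM). UMIs count captured transcript 5′ ends, so no scaling by gene length was applied. Ranges in brackets are exact 95% intervals and cover counting error only, not differences between mice, preparations or single cells. Clusters carry the authors' numbers, and the class named beside a number is the one the authors gave most of its cells. The authors built the clusters from expression, so differences between clusters are descriptions.

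CCR2 is the receptor that lets inflammatory monocytes leave the bone marrow and enter inflamed tissue, and it is also carried by effector and memory T cells. CCL2, CCL7 and CCL12 bind CCR2, and in tumours they are best known for drawing in monocytes that become macrophages. Mouse CCL8 has been described as a ligand of CCR8, a receptor of skin-homing and regulatory T cells, so the mouse protein is not simply another CCR2 ligand. CCL12 exists in mice and has no human gene of the same name.

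The 4 chemokine genes lie side by side on chromosome 11 of GRCm38 (mm10), all on the plus strand, in GENCODE vM21. Ccl2 spans chr11:82035571-82037453, Ccl7 chr11:82045712-82047525, Ccl12 chr11:82101845-82103400 and Ccl8 chr11:82115185-82116799. The stretch from Ccl2 to Ccl8 covers 81.2 kb and holds 5 protein-coding genes, the other one being Ccl11. Ccr2 lies apart, at chr9:124101950-124113557, also on the plus strand. The genes belong to 1 family, so the start of each coding sequence is shown to let a reader see how far they can be told apart. The first 60 coding bases are given 5′ to 3′ from the GENCODE transcripts, and capitals mark the bases that differ from Ccl2 at the same position, with no gaps allowed.
Ccl2: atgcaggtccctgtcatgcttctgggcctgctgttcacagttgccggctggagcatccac
Ccl7: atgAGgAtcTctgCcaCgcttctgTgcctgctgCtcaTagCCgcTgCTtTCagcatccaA
Ccl8: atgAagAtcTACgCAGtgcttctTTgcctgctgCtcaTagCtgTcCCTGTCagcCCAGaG
Ccl12: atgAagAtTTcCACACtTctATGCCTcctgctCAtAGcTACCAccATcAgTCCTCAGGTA

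Within these 60 bases Ccl7 differed from Ccl2 at 17 positions, Ccl8 at 25 and Ccl12 at 38. Because no gaps were allowed, an offset of a few bases raises such a count, so these counts do not rank likeness. With gaps, Ccl12 had the highest share with Ccl2, as given below. Over the whole coding sequence, aligned with gaps, Ccl8 shared 64.7% of alignment columns with Ccl7 and 64.4% with Ccl12, and Ccl7 63.2% with Ccl12. By this measure, which counts gap columns, Ccl2 was lower, at 46.2% with Ccl7, 44.9% with Ccl8 and 48.4% with Ccl12. Its coding sequence is longer, at 444 bases against 291 for Ccl7, 291 for Ccl8 and 312 for Ccl12. Identical bases numbered 207, 202 and 216 in these Ccl2 pairs, against 194, 199 and 203 in the other pairs. The lower percentages therefore do not show that Ccl2 is less alike where the sequences align. None of the 1138, 742, 452 and 534 distinct 60-base stretches in the transcripts of Ccl2, Ccl7, Ccl8 and Ccl12 occurred in a transcript of another gene. For Ccr2, 1.51% of its stretches did. Ccl2 overlaps Gm17268, a gene model on the minus strand, and the sources used here do not say whether counting used strand. RefSeq promoter windows of GRCm38.p6 were at hand for Ccl8, Ccl12 and Ccr2. The 250 bases before each RefSeq start were searched on either strand. For Ccr2 this window, chr9:124101933-124102182, lies mostly inside the GENCODE span given above. None of these 3 windows held the interferon-stimulated response element (ISRE) core or the STAT-binding GAS core TTCNNNGAA. The AP-1 sites TGACTCA and TGAGTCA and the NF-kB motif were absent as well. These letters occur in 2.98%, 7.02%, 4.46% and 3.90% of all 32851 windows of that length, and their absence says nothing about the factors themselves.

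Over all sorted cells, Ccl8 and Ccl12 were higher after IL-12 plasmid, while Ccl2, Ccl7 and Ccr2 stayed within 1.5-fold. Ccl8 stood at 34.1 CPM (31.5 to 37.0) in control and at 104.5 CPM after IL-12. Ccl12, the least abundant of the 5, was at 12.5 and 28.6 CPM, 2.29-fold (1.99 to 2.65). Ccl2, the most abundant ligand in both libraries, was at 147.3 CPM in control and 114.8 CPM in IL-12, a ratio of 0.78 (0.74 to 0.82). Ccl7 was at 30.3 and 37.4 CPM, and Ccr2 at 61.2 and 74.7 CPM. A gene was called higher or lower when its log2 ratio, with 1 CPM added to both levels, passed 1.5-fold, and genes needed 50 UMIs over both libraries. By this rule 2 of the 5 genes were higher and 0 lower, against 12.3% of 10175 genes called higher, 19.8% called lower and 32.1% either way.

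The ratios of Ccl2, Ccl7 and Ccr2 depended on which cells were counted. Both Ccl8 and Ccl12 stayed past 1.5-fold in all 17 alternative settings run over all cells and over cluster 6. When IL-12 cells were weighted to control cluster shares, Ccl2 had a log2 ratio of -0.018 in place of -0.36, and Ccr2 one of 0.033 in place of 0.28. Without cells called neutrophils Ccl2 was past 1.5-fold lower at -0.66, Ccl7 was at -0.10 in place of 0.30 and Ccr2 at -0.14.

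**Figure D1:**
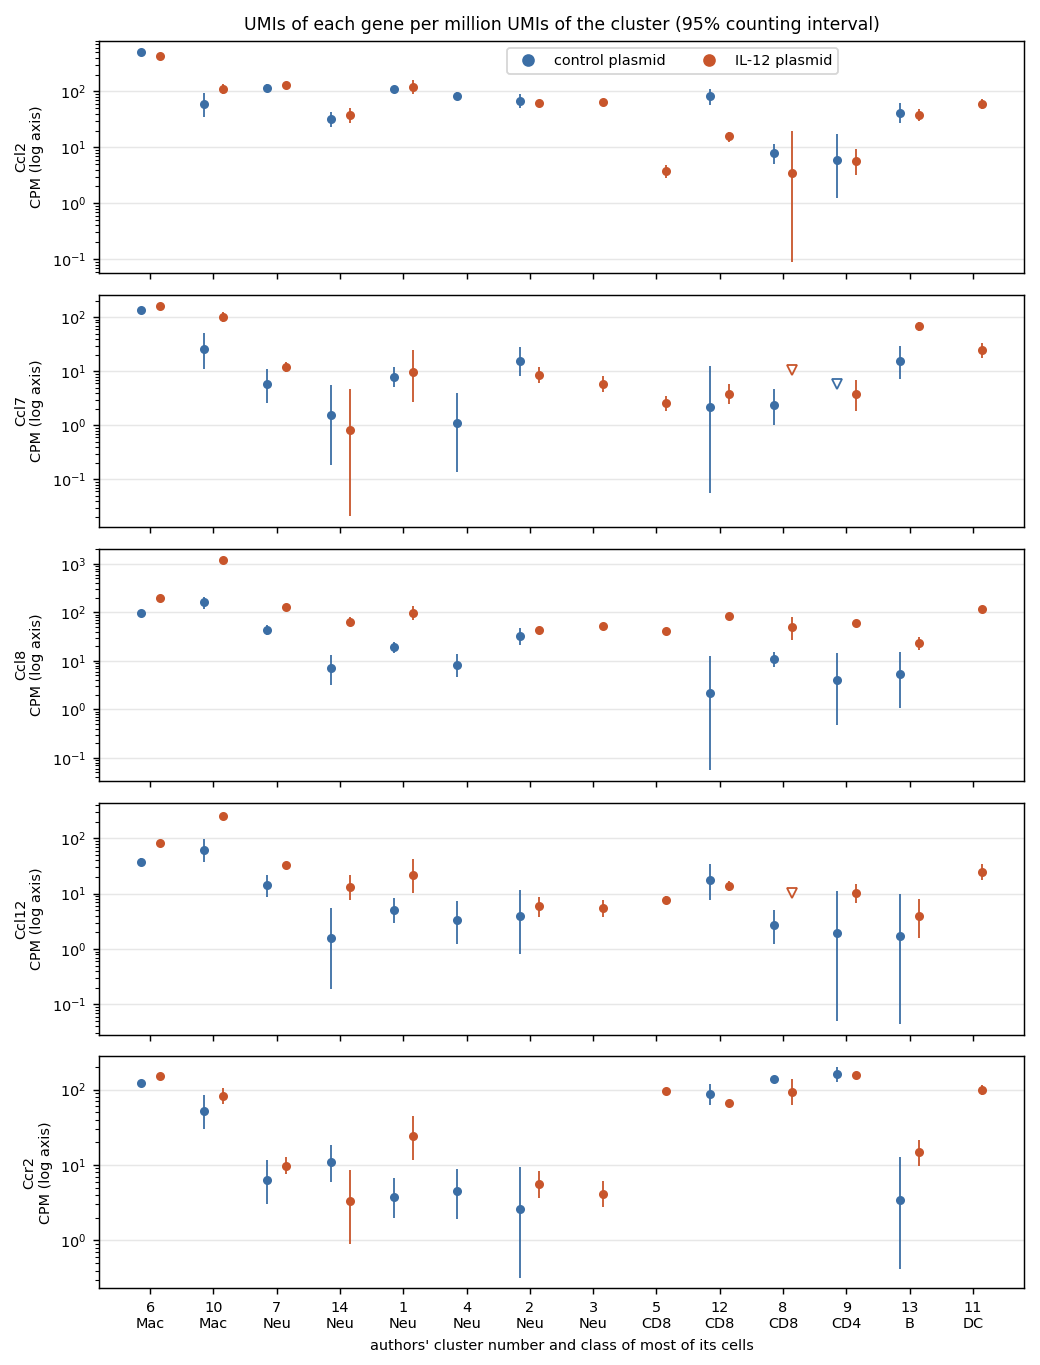
Level of each gene (UMIs per 1000000 UMIs, log axis) in each of the authors' clusters, with points for the control library and the IL-12 library and bars for the 95% counting interval. Open triangles mark the level of 3 UMIs where none was seen, and clusters with under 50 cells in a library are left out for it; Ccl2 and Ccl7 peak in cluster 6, Ccl8 and Ccl12 in cluster 10 of the IL-12 library, and Ccr2 in macrophage and T cell clusters.

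Cells called macrophages, most of them in clusters 6 and 10, supplied the largest share of each ligand. They gave 66.2% of control and 71.97% of IL-12 UMIs of Ccl2, 86.8% and 82.4% of Ccl7, 61.8% and 51.4% of Ccl8, and 66.7% and 66.4% of Ccl12. Cells called neutrophils gave 30.2% and 23.1% of Ccl2 and 29.8% and 23.1% of Ccl8, and cells called CD8 T 6.26% and 19.3% of Ccl8. Cluster 6 held 368 control and 1174 IL-12 cells of high depth (median 8899.5 and 9333 UMIs), and all 12 macrophage and all 12 monocyte markers were detected in it in both libraries. Cluster 10 held 209 and 519 cells of low depth (median 1190 and 1246 UMIs). Ccl8 and Ccl12 are themselves among the genes that set cluster 10 apart, so their high level there is part of what defines it. Cluster 6 supplied 64.9% of all control and 70.1% of all IL-12 UMIs of Ccl2, and 84.9% and 78.3% of Ccl7. It supplied less of Ccl8, 53.5% in control and 34.7% in IL-12. Cluster 10 held few UMIs in all and supplied 0.71% and 1.41% of Ccl2, 1.53% and 3.88% of Ccl7, and 8.29% and 16.3% of Ccl8.

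Libraries were compared in the 10 clusters with at least 50 cells in both, and each gene in those where it had 50 UMIs. The share of all genes called higher after IL-12 was 13.8% in cluster 1, 8.4% in cluster 2, 11% in cluster 6, 9.55% in cluster 7 and 12.8% in cluster 8. It was 15.9% in cluster 9, 23.3% in cluster 10, 17.2% in cluster 12, 19.2% in cluster 13 and 13.9% in cluster 14. The share called lower was 22.9% in cluster 1, 38.3% in cluster 2, 20.3% in cluster 6, 32.1% in cluster 7 and 24% in cluster 8. It was 15.7% in cluster 9, 13.6% in cluster 10, 28.2% in cluster 12, 28.3% in cluster 13 and 30.8% in cluster 14.

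Ccl2, the main CCR2 ligand, had its highest level in cluster 6, at 499.7 CPM in control and 437.6 CPM in IL-12. Neutrophil clusters 1, 2, 3, 4 and 7 came next, between 61.9 and 131.8 CPM wherever at least 50 cells were held. Cluster 10 of the IL-12 library and cluster 12 of control lay among them, and their order is not clear beyond the counting intervals. Neutrophil cluster 14 was lower, at 31.8 CPM in control and 37.3 CPM in IL-12. T cell clusters 5, 8 and 9 lay between 3.48 and 7.80 CPM. Between libraries Ccl2 stayed within 1.5-fold in 6 of the 8 clusters in which it could be compared, cluster 6 included. In cluster 10 it was higher after IL-12, at 111.5 against 58.6 CPM, and in cluster 12 it was lower, at 15.7 against 81.7 CPM.

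Ccl7, which binds CCR2 and other receptors, followed Ccl2 in cluster 6, at 134.4 CPM in control and 159.2 CPM in IL-12. In cluster 10 it stood at 26.1 CPM (8 UMIs) in control and 100.01 CPM in IL-12, 3.84-fold higher (1.86 to 9.17). Neutrophil clusters held little of it, between 0.83 and 15.8 CPM where at least 50 cells were held. Cluster 13, called B cells, held 15.7 and 68.0 CPM. That level came from very few cells: 115 of its 123 IL-12 UMIs lay in 2 cells, and 8 of its 9 control UMIs in 1 cell. Over the 5 clusters with enough UMIs, Ccl7 was higher in 3, lower in 1 (cluster 2) and within 1.5-fold in 1 (cluster 6).

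Ccl8, described as a CCR8 ligand in mice, was higher after IL-12 in more clusters than any other member. It stood at 95.4 and 197.1 CPM in cluster 6, 2.07-fold (1.84 to 2.33), and at 159.6 and 1175 CPM in cluster 10, 7.36-fold (5.53 to 10.0). In neutrophil cluster 7 it was at 43.0 and 129.0 CPM, 3.00-fold, and in neutrophil clusters 1 and 14 it was 5.11-fold and 9.27-fold higher. CD4 T cell cluster 9 held 2 control UMIs against 156 in the other library, a ratio of 15.03 (4.09 to 125.2). Of those 156 UMIs, 74 lay in 2 cells. Cluster 14 held 9 control UMIs against 78, of which 67 lay in 4 cells. Cluster 12 held 1 control UMI against 493, of which 303 lay in 6 cells. The counting intervals do not cover this gathering in few cells. Ccl8 was past 1.5-fold higher in 8 of the 9 clusters with enough UMIs, these included. The exception was neutrophil cluster 2, at 32.9 and 43.8 CPM, 1.33-fold (0.87 to 2.11).

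Ccl12, a mouse CCR2 ligand, was past 1.5-fold higher in 3 of 4 clusters with enough UMIs. It stood at 37.4 and 83.3 CPM in cluster 6, 2.23-fold (1.84 to 2.71), at 61.9 and 249.5 CPM in cluster 10, 4.03-fold (2.52 to 6.83), and at 14.1 and 32.4 CPM in cluster 7, 2.30-fold. In cluster 12 it stood at 17.7 CPM (8 UMIs) and 13.9 CPM. In cluster 10 all 5 genes were called higher, Ccr2 narrowly, and that cluster also had the largest share of genes called higher.

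**Figure D2:**
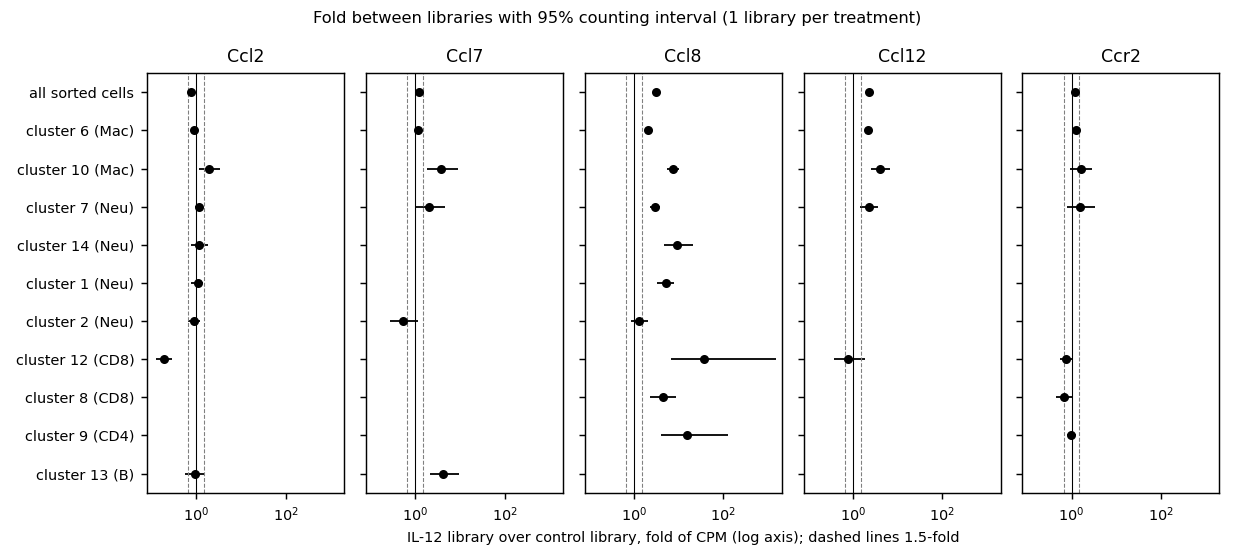
Level in the IL-12 library over that in the control library (log axis) for each gene, in all sorted cells and in each cluster with at least 50 cells per library and 50 UMIs of the gene, with 95% counting intervals. Ccl8 lies to the right of the dashed 1.5-fold line in every row drawn except cluster 2, while Ccl2 lies between the dashed lines except in clusters 10 and 12.

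Transcripts of other cells moved with some of these results, and their part in them was not tested. Cluster 10 held red cell markers at 13734 CPM in control and 13444 CPM in IL-12, against 6.34 and 140.7 CPM in cluster 6. Its macrophage markers summed to 8718 and 11953 CPM, its mast cell markers to 556.9 and 1199 CPM, and its neutrophil markers to 7350 and 2247 CPM. In cluster 6 the 6 CD8 T cell markers summed to 99.3 CPM in control and 448.4 CPM in IL-12. Cells with T cell transcripts or a T cell receptor made up 7.34% of cluster 6 in control and 23.5% in IL-12. Without them Ccl2 in cluster 6 was at a log2 ratio of -0.39 in place of -0.19, and the ratios of Ccl7, Ccl8, Ccl12 and Ccr2 stayed inside their counting intervals. The fibroblast markers, of cells that can also make CCL2, summed to 0.60 and 0.82 CPM in cluster 6, with Col3a1 at 0 in both libraries. Cluster 12, called CD8 T cells, held all 10 neutrophil markers, at 51229 and 38793 CPM, against 2302 and 3638 CPM for its CD8 T cell markers. Its values are given by number, and its 54 control cells are few.

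The make-up of the chemokine UMIs differed between the libraries. Of the UMIs of the 4 chemokines, Ccl2 gave 65.7% in control and 40.2% in IL-12, and Ccl8 gave 15.2% and 36.6%. In cluster 6 Ccl2 remained the largest, with 65.2% in control and 49.9% in IL-12, and Ccl8 held 12.4% and 22.5%. In cluster 10 Ccl8 was the largest in both, with 52.1% of 94 UMIs and 71.8% of 1423 UMIs. T cell clusters 5 and 9 of the IL-12 library had a make-up close to that of cluster 10: Ccl8 gave 74.6% and 75.0%, Ccl12 13.96% and 12.98%, and Ccl2 6.82% and 7.21%. The neutrophil clusters had Ccl2 from 32.1% to 51.5% and Ccl8 from 36.5% to 55.7% in clusters 1, 2, 3, 7 and 14 of the IL-12 library, and Ccl7 from 0.71% to 7.14%, against 18.1% in cluster 6.

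**Figure D3:**
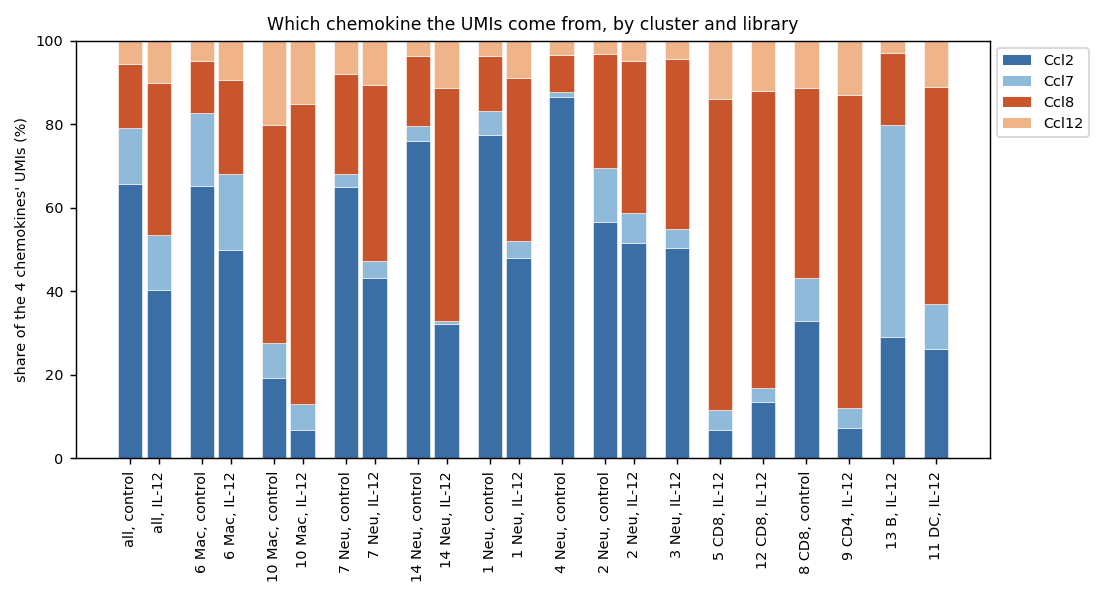
Share (%) of the UMIs of Ccl2, Ccl7, Ccl8 and Ccl12 taken by each gene, as stacked bars for all cells and for each cluster and library with at least 50 such UMIs and 50 cells. Ccl8 takes 15.2% of the control bar and 36.6% of the IL-12 bar over all cells, and 71.8% in cluster 10 and 74.6% in cluster 5 of the IL-12 library.

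A small number of cells held most of each ligand's UMIs, which the averages above do not show. In control, 50% of the 2549 Ccl2 UMIs lay in 17 cells, and 1 cell alone had 399. In IL-12, 50% of the 6885 Ccl2 UMIs lay in 35 cells, the highest with 401 and 397. The same share lay in 7 and 19 cells for Ccl7, in 6 and 52 for Ccl8, and in 19 and 70 for Ccl12. Ccr2 was spread much more widely: 72 control and 421 IL-12 cells held 50% of it, and no cell had more than 25 UMIs. The counting intervals of the ligands do not cover this spread between cells.

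With the 10 highest cells of each gene left out of each library, the log2 ratio in cluster 6 was 0.52 for Ccl2 in place of -0.19, 1.05 for Ccl7 in place of 0.24, 2.87 for Ccl8 in place of 1.04 and 1.65 for Ccl12 in place of 1.13. In number, 10 cells are a larger share of the smaller control library. Without those cells the Ccl2 difference in cluster 6 had the other sign, and Ccl7 passed 1.5-fold higher. The ratios of Ccl8 and Ccl12 were larger without them.

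**Figure D4:**
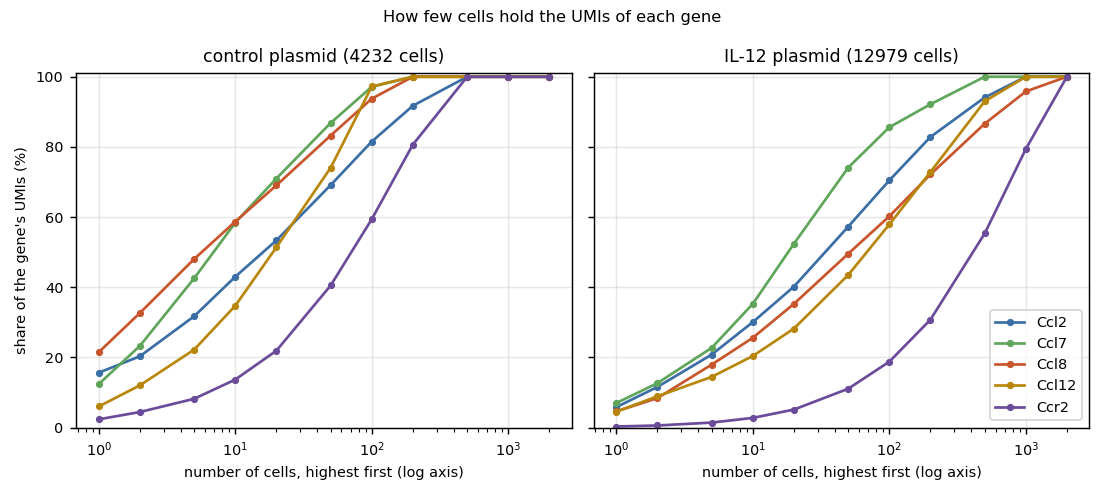
Cumulative share (%) of each gene's UMIs against the number of cells counted from the highest down (log axis), for either library. The ligand curves pass 50% within 6 to 19 control cells and 19 to 70 IL-12 cells, while Ccr2 needs 72 and 421.

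Not all high cells were macrophages. Of the 48 control and 129 IL-12 cells with at least 10 Ccl2 UMIs, 30 and 85 were called macrophages and 16 and 38 neutrophils. The Ccl2-high neutrophils carried neutrophil markers at 91329 and 84506 CPM, and macrophage markers at 580.7 and 1248 CPM. Neutrophils without Ccl2 had macrophage markers at 871.2 and 1081 CPM, and Ccl2-high macrophages at 8856 and 6883 CPM. Per cell, the median of macrophage marker UMIs was 1 in Ccl2-high and 1 in Ccl2-free neutrophils of control, and 3 against 1 in IL-12, where the high cells were deeper (median 4740.5 against 2512 UMIs). At least 3 such UMIs were held by 25% against 21.5% in control and by 55.3% against 28.3% in IL-12. The medians in Ccl2-high macrophages were 33 and 38.

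Cells high in Ccl8 were looked at in the same way. In IL-12, 112 cells had at least 10 Ccl8 UMIs, of which 54 were called macrophages, 35 neutrophils, 21 CD8 T cells and 2 CD4 T cells. The 21 CD8 T cells had a median of 67 macrophage marker UMIs per cell, against 1 in CD8 T cells without Ccl8, together with a median of 35 CD8 T cell marker UMIs and a receptor recorded in all of them. The 35 neutrophils had a median of 27 macrophage marker UMIs, against 1 in neutrophils without Ccl8. All of the 21 and all of the 35 had at least 3 macrophage marker UMIs. For Ccl8 in cells called T cells or neutrophils, a macrophage's transcripts in the same droplet and transcription by the cell itself cannot be told apart here.

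Shares of cells with a UMI were compared after thinning each cell to 1000 UMIs. In cluster 6, Ccl2 was seen in 13.3% of control cells (10.0 to 17.2) and 12.9% of IL-12 cells (11.01 to 14.9), and unthinned in 30.2% and 30.1%. Ccl7 was seen in 8.97% and 5.54%, unthinned in 16.3% and 13.4%, although its CPM was slightly higher in IL-12, so no order is read from it. Ccl8 was seen in 2.72% (1.31 to 4.94) and 5.97% (4.68 to 7.48), unthinned in 9.51% and 15.7%. Ccl12 was seen in 4.08% and 5.46%, unthinned in 11.96% and 17.9%. In cluster 10, where 82 control and 148 IL-12 cells were too shallow and were left out, Ccl8 was seen in 3.15% (0.86 to 7.87) and 17.5% (13.8 to 21.8).

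T cells are not generally regarded as a source of Ccl8, so CD4 T cell cluster 9 (median 2784 and 2579 UMIs) is given as a reference. There Ccl8 was seen in 0.56% of control and 3.00% of IL-12 cells after thinning, so that reference was higher after IL-12 as well. With an interval of 2.02 to 4.28 for that IL-12 share, those of cluster 6, cluster 7 (8.13%) and cluster 10 had intervals wholly above it. Neutrophil clusters 2 and 3, at 3.05% (2.30 to 3.95) and 3.48% (2.81 to 4.27), had intervals that overlap it. Unthinned, clusters 5 and 12 of IL-12, called CD8 T cells, had Ccl8 in 8.52% and 13.7% of cells, against 5.02% in cluster 9. Clusters 5 and 12 were deeper, at medians of 6117.5 and 8038.5 UMIs. The intervals treat cells of the same library as the units, and other T cell clusters could have served as the reference. No cluster is therefore placed above stray transcripts by these shares.

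Within cluster 6 the ligands were found together to different degrees. At full depth, cells with Ccl7 had Ccl2 in 73.3% of cases in control and 74.5% in IL-12, against 21.8% and 23.2% of cells without Ccl7. After thinning to 1000 UMIs the shares were 45.5% against 10.1% in control. Of IL-12 cells with Ccl8, 33.2% had Ccl12 and 22.8% Ccl7, against 15.1% and 11.6% of cells without Ccl8. For Ccl2 the difference was smaller, at 35.3% (28.4 to 42.7) of cells with Ccl8 and 29.1% (26.3 to 32.0) of cells without it. To describe the other genes of such cells, cluster 6 was split by whether a cell kept a UMI of a gene after thinning to 2000 UMIs, and levels were taken from all UMIs of these cells. Cells that kept Ccl2 (69 control, 195 IL-12) had 27.2-fold and 15.4-fold more Ccl7 and 3.86-fold and 3.66-fold more Ccl12 than cells that did not. F13a1, the coagulation factor XIII subunit of monocytes, was 2.37-fold and 2.30-fold higher in them. Ly6c2, the marker of inflammatory monocytes, was at 157.2 against 54.2 CPM in control and at 812.0 against 573.4 CPM in IL-12. Other monocyte genes did not share this pattern in both libraries: Vcan was 2.97-fold and 0.86-fold, Plac8 2.001-fold and 1.004-fold, Ms4a6c 1.42-fold and 1.03-fold, Fn1 0.90-fold and 1.21-fold, and Cx3cr1 0.90-fold and 0.61-fold.

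Cells that kept Ccl8 had another profile. They numbered 14 in control and 105 in IL-12, so the control values rest on few cells. C1qa, C1qb and C1qc, the complement C1q chains made by tissue macrophages, were 2.54-fold to 2.86-fold higher in control and 2.91-fold to 3.46-fold higher in IL-12. Ms4a7 was 3.88-fold and 4.43-fold higher, Apoe 2.51-fold and 2.81-fold, and the mannose receptor gene Mrc1 1.82-fold and 3.01-fold. Several monocyte genes were lower: Ly6c2 was at 6.70 against 76.7 CPM (1 UMI in the Ccl8 cells) in control and at 363.0 against 638.4 CPM in IL-12, and Plac8 was 0.51-fold and 0.56-fold. Vcan had no UMI in the 14 control cells and was 0.51-fold in IL-12. Fn1, at 1.35-fold and 1.13-fold, and Cx3cr1, at 3.12-fold and 2.23-fold, were not lower. The other ligands were higher in the Ccl8 cells, Ccl7 4.35-fold and 2.29-fold, Ccl12 7.25-fold and 2.26-fold, and Ccl2 1.74-fold and 1.31-fold. Ccl8 in the Ccl2 cells differed between libraries, at 186.3 against 74.8 CPM in control and at 63.4 against 224.8 CPM in IL-12. With so few cells holding Ccl8, this difference was not tested.

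**Figure D5:**
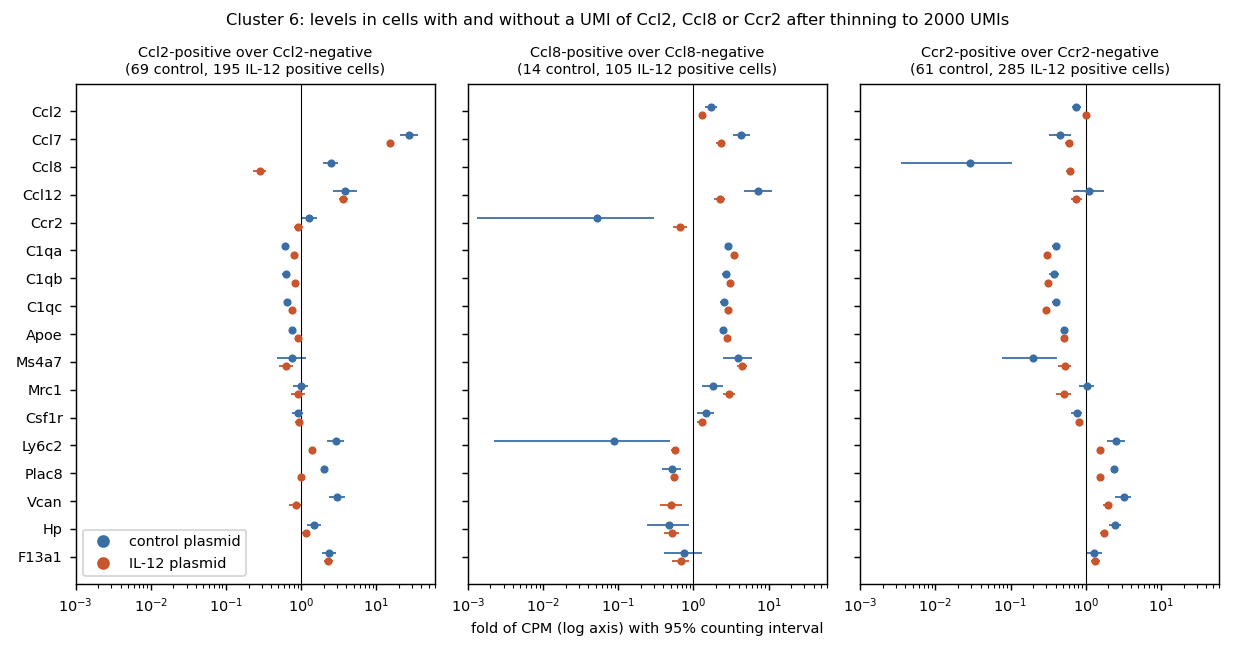
Level of each gene in cluster 6 cells that kept a UMI of Ccl2, Ccl8 or Ccr2 after thinning to 2000 UMIs over that in cells that did not (log axis), with points for each library and bars for the 95% counting interval; genes with no UMI on a side are not drawn. C1q genes, Ms4a7 and Apoe lie right of 1 beside Ccl8 and left of 1 beside Ccr2, while Ccl7 lies far to the right beside Ccl2.

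Ccr2, the receptor, shared cluster 6 with its ligands and was also found in T cell clusters, where Ccl2 and Ccl7 were low. Cluster 6 held 37.8% of all control and 37.04% of all IL-12 UMIs of Ccr2. Its level was highest in CD4 T cell cluster 9, at 160.3 CPM (127.3 to 199.3) in control and 157.5 CPM in IL-12, and in macrophage cluster 6, at 120.8 and 150.4 CPM. CD8 T cell cluster 8 had 136.6 CPM in control, where most of its cells lie, and 94.0 CPM in IL-12. Cluster 11, called dendritic cells, had 98.7 CPM and CD8 T cell cluster 5 had 94.6 CPM in IL-12, with under 50 cells each in control. Clusters 9, 8 and 6 in control could not be ordered beyond their counting intervals. Neutrophil clusters with at least 50 cells lay between 2.64 and 24.4 CPM, and cluster 13, called B cells, at 3.49 CPM (2 UMIs) and 14.9 CPM.

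Between libraries Ccr2 was within 1.5-fold in 5 of 6 clusters with enough UMIs and higher in 1, cluster 10, at 52.1 and 82.8 CPM, 1.59-fold (0.91 to 2.93). After thinning to 1000 UMIs it was seen in 11.7% of control and 12.8% of IL-12 cells of cluster 6, and in 10.1% and 11.9% of cluster 9. Thinned to 2000 UMIs, cluster 6 had it in 17.1% of control (13.4 to 21.5) and 24.7% of IL-12 cells (22.2 to 27.3). These intervals treat cells of 1 library per treatment as the units, so they cannot show a difference between treatments. Unthinned, those shares were 41.8% and 55.3% in cluster 6 and 19.0% and 19.7% in cluster 9. Neutrophils, which mostly lack Ccr2, had it in 0.34% and 0.59% after thinning and 1.14% and 1.79% unthinned, at median depths of 2524 and 2553 UMIs. Clusters 1 and 4 held most of the control neutrophils and clusters 2, 3 and 7 most of the IL-12 neutrophils. Cells called CD8 T held 47.97% of all control and 45.1% of all IL-12 UMIs of Ccr2, and cells called macrophages 40.1% and 38.9%, so the level over all sorted cells mixes T cells and macrophages. Among its 10 leading genes cluster 8 has the NK cell marker Gzma and no CD8 T cell marker. It also holds 572 of the 649 control cells called CD8 T. Of the 636 such control cells without Ccl8, 69.2% had a receptor recorded. No direction is read from the CD8 T shares.

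In cluster 6, cells that kept Ccr2 (61 control, 285 IL-12) were lower in C1qa, at 0.40-fold and 0.30-fold, in Ms4a7, at 0.20-fold and 0.52-fold, and in Apoe, at 0.52-fold and 0.51-fold. They were higher in Ly6c2, 2.52-fold and 1.55-fold, in Vcan, 3.18-fold and 1.95-fold, and in Plac8, 2.38-fold and 1.54-fold. At full depth (154 control and 649 IL-12 cells with Ccr2), Ccl8 was the ligand least often found with Ccr2 in control. There 3.90% of cells with Ccr2 had Ccl8, against 13.6% of cells without Ccr2. In IL-12 the shares were 11.9% and 20.4%. Ccl2 was in 35.1% and 30.7% of cells with Ccr2, and in 26.6% and 29.3% of cells without it. After thinning to 1000 UMIs the Ccl2 shares were 13.95% against 13.2% in control and 10.7% against 13.2% in IL-12. In the cells that kept Ccr2, the level of Ccl2 was 0.75-fold in control (0.65 to 0.86) and 1.02-fold in IL-12. No link between Ccl2 and Ccr2 is read from these values.

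The genes whose levels ran most like each member over 24 combinations of cluster and library were found by Pearson's r of log2 levels over 8370 genes. The combinations share 2 libraries and their depth, so r is given as a description. Ccl2 ran most like Met (0.94) and P2ry6 (0.91), and Ccl7 most like Timp1 (0.92) and Cxcl16 (0.91). Ccl8 ran most like Ms4a7 (0.86) and C1qb (0.81), and Ccl12 like C1qb (0.89) and C1qc (0.86). Itga1 (0.92) was among the genes most like Ccr2. Among the members themselves, r was 0.75 for Ccl8 with Ccl12, 0.69 for Ccl2 with Ccl7, 0.33 for Ccl2 with Ccl8 and -0.29 for Ccl2 with Ccr2.

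Other genes of the pathway were read in cluster 6, where 11% of 7584 genes were called higher, 20.3% lower and 31.3% either way. Of the 10 other CC chemokines in the table, 7 had enough UMIs: 1 was higher, 4 lower and 2 within 1.5-fold, with a median log2 ratio of -1.16 against -0.13 for all genes tested. Ccl5, a T cell and monocyte attractant, was higher at 202.9 and 1045 CPM. Ccl17, a ligand of CCR4, was lower at 39.0 CPM (129 UMIs) and 1.27 CPM (14 UMIs). Ccl6, Ccl9 and Ccl24 were the other lower members, Ccl9 at 864.2 and 290.5 CPM. Ccl5 is also made by T cells, whose markers were higher in this cluster after IL-12, as given above.

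Of 15 classical monocyte genes, 5 were higher, 4 lower and 6 within 1.5-fold, with a median of 0.15. Ly6c2 was at 73.1 and 614.1 CPM, 8.40-fold, Ms4a4c 3.41-fold and Plac8 2.94-fold, all higher. Chil3, the chitinase-like protein of alternatively activated macrophages and monocytes, was at 1904 and 215.1 CPM, and fibronectin gene Fn1 at 2137 and 638.3 CPM, both lower. The list held members in both directions. Of 8 measured non-classical monocyte genes, 3 were higher, 4 lower and 1 within, with Ear2 at 45.9 and 1.90 CPM.

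Of 7 measured related receptors 3 were higher, 2 lower and 2 within, Ccr7 at 28.1 and 71.0 CPM, Ccrl2 at 453.8 and 934.9 CPM, and the scavenging receptor Ackr3 lower at 37.4 and 6.62 CPM. Ccr8, described as the receptor of mouse CCL8, had 0 control UMIs in this cluster against 16 after IL-12, while over all sorted cells it stood at 3.41 and 10.9 CPM, 3.20-fold. Of 16 NF-kB and interferon regulators, 3 were higher, 1 lower and 12 within, with a median of 0.40: Tnf 2.56-fold, Irf7 2.15-fold and Nfkbia 1.62-fold were higher, and Nfkb1 was lower at 434.2 and 217.8 CPM. Of 13 genes of CCR2 signalling and trafficking 0 were higher, 3 lower and 10 within, and of 5 measured monocyte growth factors and receptors all were within 1.5-fold.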

How the data were processed

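The deposited expression tables, 1 per library, list cells in rows and genes in columns on a log2 scale. The values themselves show this to be log2(CPM + 1), with CPM per 1000000 UMIs of the cell. Per the submitters' processing notes, Cell Ranger 2.1.0, STAR 2.6.1 and Partek (version not given in the sources used here) were used with the mm10 genome. UMIs were recovered by undoing the log2 and taking each cell's smallest value above 0 as 1 UMI. The results were whole numbers within 0.1 for all but 6 control and 13 IL-12 values. No column of per-sample values was left unmapped (0 columns).

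Levels are summed UMIs over all UMIs of the named cells (CPM), with exact Poisson 95% intervals, and shares have exact binomial intervals. Folds are CPM ratios, and calls use log2 ratios with 1 CPM added. A level of 3 UMIs is the floor where none was seen. Samples were grouped by the labelled plasmid, and no test was made. Clusters and classes are the authors'. No doublet caller was run, and the sources used here do not say whether doublets were removed. Cells with T cell transcripts or a receptor were left out of cluster 6 as an alternative. For thinned shares, UMIs were drawn at random down to a fixed number per cell, and shallower cells were left out.

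Members, marker lists and gene lists were chosen with earlier results of these data known. Named genes are the 5 members, the most like genes, and up to 4 examples per list; 1 gene that the rule names is not reported here. The genes named in the split of cluster 6 and the listings of high cells were chosen after values were seen. On simulated counts for 10175 genes, 95.2% of the intervals held the true ratio in all sorted cells. These counts were drawn independently, as the interval assumes, so the figure checks the computation only. It does not cover the gathering of ligand UMIs in few cells. Sequences come from GENCODE vM21 transcripts and RefSeq promoter windows. Python 3.11.15, numpy 2.4.6, scipy 1.17.1 and pandas 2.3.3 were used. T cell receptor libraries and scores were not analysed here beyond the receptor column of the tables.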

Additional observations from a re-analysis of the deposited data

Results flagged for a closer look

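Ccl2 differed between the libraries in opposite directions in 2 clusters. In cluster 12, called CD8 T cells, the log2 ratio of IL-12 to control was -2.31 (37 control and 94 IL-12 UMIs), and in cluster 10, called macrophages, it was 0.92 (18 and 97 UMIs). Each cluster has 1 library per treatment, and the difference between the clusters was not tested. In cluster 12 of the control library, 20 of the 37 UMIs lay in 1 cell.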

How the results depend on the processing

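Values are log2 ratios of IL-12 to control, and 51 alternative values lay inside the counting interval of the value reported. The other 34 lay outside it and are given below. Over all sorted cells, Ccl2 (-0.36), Ccl8 (1.59) and Ccr2 (0.28) became -0.45, 1.88 and 0.48 as a mean of per-cell CPM. Leaving out cells under 1000 or over 15000 UMIs gave -0.20 for Ccl2 and 1.76 for Ccl8. Leaving out the 10 highest cells gave -0.069 for Ccl2, 0.89 for Ccl7, 2.38 for Ccl8 and 0.45 for Ccr2. Weighting to the control cluster shares gave -0.018 for Ccl2, 0.55 for Ccl7, 2.02 for Ccl8 and 0.033 for Ccr2. Without neutrophils the values were -0.66 for Ccl2, -0.10 for Ccl7, 1.28 for Ccl8, 0.82 for Ccl12 and -0.14 for Ccr2. A pseudocount of 10 CPM gave 1.37 for Ccl8 and 0.78 for Ccl12.

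In cluster 6, leaving out shallow and very deep cells gave 0.073 for Ccl2 (-0.19) and 1.31 for Ccl8 (1.04). Leaving out the 10 highest cells gave 0.52 for Ccl2, 1.05 for Ccl7 (0.24), 2.87 for Ccl8, 1.65 for Ccl12 (1.13) and 0.56 for Ccr2 (0.31). Taking cells with at least 3 of 8 macrophage genes gave -0.47 for Ccl2, -0.013 for Ccl7, 1.49 for Ccl8 and 0.13 for Ccr2. Without cells holding T cell transcripts or a receptor Ccl2 was -0.39. Ccl8 was 1.44 as a mean of per-cell CPM and 1.41 over the whole macrophage class. The cause of these shifts was not tested. Leaving out shared barcodes was chosen after seeing the data. Asking for 20 or 200 UMIs in place of 50 moved the share of genes called either way in all sorted cells from 32.1% to 30.2% and 34.0%, and a 2-fold threshold gave 9.65%, and 10.4% in place of 31.3% in cluster 6.

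No paired analysis was possible because each treatment has 1 library and the labels give no replicate numbers. The design limits every comparison: 3 mice were pooled per library, a difference between mice cannot be seen, and cluster 12 has 54 control cells. Cluster 10 has 18 control Ccl2 and 8 control Ccl7 UMIs, so its ratios are imprecise.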
